A study of Mus musculus with 8 samples.

Results

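The crystallins are the soluble structural proteins that fill the fibre cells of the ocular lens. The 10 crystallin genes described here are the alpha crystallins Cryaa and Cryab, the beta crystallins Cryba1, Cryba2, Cryba4, Crybb1, Crybb2 and Crybb3, and the gamma crystallins Cryga and Crygs. They were taken as every probe set that the platform annotation gives to 1 of these symbols alone, which made 12 of the 45101 probe sets on the array and 10 of 18193 named genes. The probe sets that stand for the genes are 1452486_a_at (Cryaa), 1434369_a_at (Cryab), 1450671_at (Cryba1), 1419011_at (Cryba2), 1420686_at (Cryba4), 1418306_at (Crybb1), 1420536_at (Crybb2), 1419005_at (Crybb3), 1422652_at (Cryga) and 1420453_at (Crygs). One further probe set, shared between Cryga and a neighbouring gene, was left out. The arrays were hybridised with total RNA of mouse cornea, the transparent front wall of the eye, which lies in front of the lens and holds none. Of the 8 arrays, 4 come from mice that overexpress TGF-beta, here called TGFB, and 4 from their wildtype littermates. The labels give neither the TGF-beta isoform, the promoter and cells that drive it, the strain, nor the age of the mice, and do not state whether arrays stand for separate mice. The p-values below thus cover the spread among these 8 arrays alone, part of which may be technical.

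Alpha crystallins are small heat-shock proteins that keep other proteins soluble. Cryaa is nearly restricted to the lens, whereas Cryab is also made in muscle, heart and many stressed cells. Beta and gamma crystallins share a fold and have mainly a structural, refractive role. Their genes are switched on as lens epithelial cells become fibre cells under transcription factors such as Maf, Sox2 and Prox1. In rodents the gamma crystallins of the Cryga cluster are made early in life, and Crybb2 and Crygs continue to accumulate in the growing and adult lens.

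The crystallins other than Cryab varied widely from array to array and did not separate the TGFB from the wildtype corneas. Each of the 10 genes was brightest in wildtype 3. The order wildtype 3, TGFB 4, wildtype 1, TGFB 3, wildtype 4 held for 8 of the 10, Crybb2 and Cryab being the exceptions. The 3 dimmest arrays were TGFB 1, TGFB 2 and wildtype 2 for 9 of the 10, all but Cryab. Both groups thus held arrays with abundant and with almost no crystallin signal. Values are linear signals, and differences between groups are on the log2(signal + 16) scale, which understates the change of dim genes. Signals of different genes come from different probes, so a ratio of genes or families is no ratio of RNA amounts, and such ratios are given only to set 1 array against another.

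**Figure D1:**
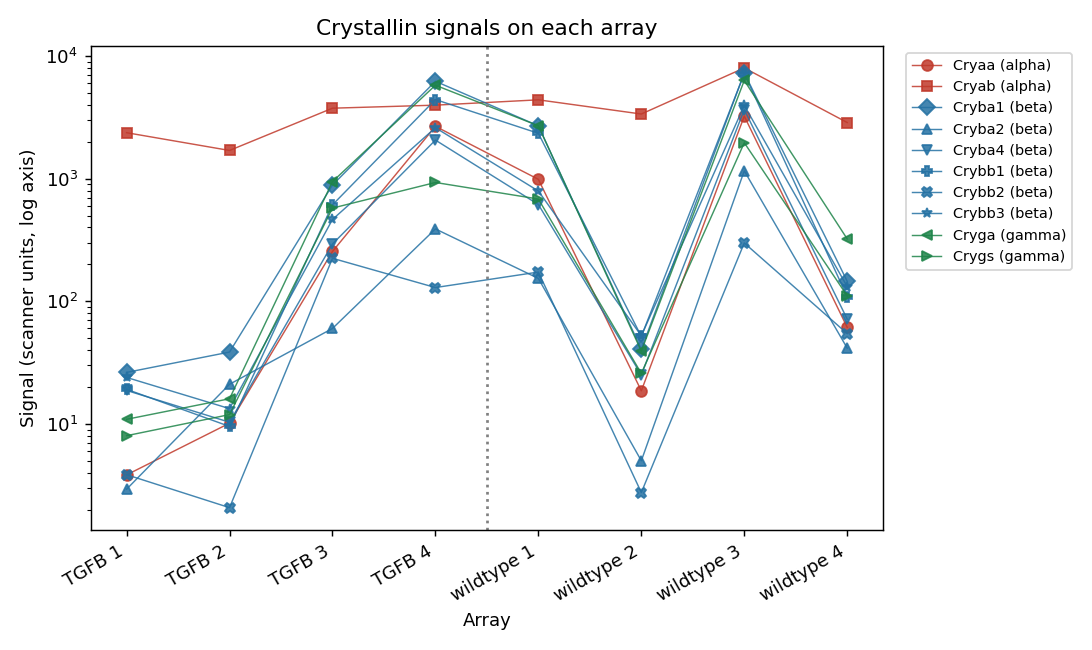
Signal of each of the 10 crystallin genes (log axis) on the 4 TGFB and 4 wildtype arrays, coloured by family; lines only join the points of a gene. Cryab stays between 1697 and 7990.3, while the other 9 genes drop below 60 on TGFB 1, TGFB 2 and wildtype 2 and peak in wildtype 3.

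Of the alpha crystallins, Cryaa gave signals of 3.84, 10.1, 255 and 2669.5 in TGFB 1 to 4 and of 987, 18.6, 3228 and 61.3 in wildtype 1 to 4. The arrays spanned 7.35 on the log2(signal + 16) scale, with TGFB 1 and TGFB 2 below 16, and the groups overlapped. Cryab, through its brightest probe set, gave 2368, 1697, 3752 and 3972 in TGFB and 4389.6, 3362, 7990.3 and 2867 in wildtype corneas, a range of 4.71-fold. It stayed bright on the 3 arrays where Cryaa was near background. A second Cryab probe set gave the same highest and lowest array, at 296, 232, 524 and 460 (TGFB) and 889, 524, 1428 and 336 (wildtype). The third stayed below 12 on every array and carried no usable signal.

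Among the acidic beta crystallins, Cryba1, which encodes the A3 and A1 forms, gave 26.3, 38.5, 886 and 6219 in TGFB and 2693, 40.6, 7269 and 145 in wildtype corneas. Cryba4 ran at 18.7, 10.3, 293 and 2061 against 615, 25.1, 3652 and 71.5. Cryba2 ran at 2.94, 21.1, 60.0 and 389 against 154, 5.01, 1157 and 41.5. In all 3 genes TGFB 4 and wildtype 3 were highest, 1 array of each group. Among the basic beta crystallins, Crybb1 gave 19.2, 9.54, 611 and 4411 in TGFB and 2341, 51.7, 7171 and 109 in wildtype corneas. Crybb3 gave 23.9, 13.3, 465 and 2601 against 793, 52.3, 3954 and 132. Crybb2 had its own profile, with 3.85, 2.08, 224 and 129 against 173, 2.76, 299 and 54.5. Among the 10 genes it was the one whose signal in TGFB 3 exceeded that in TGFB 4.

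The gamma crystallin Cryga, one of a cluster of closely similar genes, gave 10.9, 16.04, 945 and 5773 in TGFB and 2696, 39.2, 6313 and 322 in wildtype corneas. Crygs, the gamma crystallin that stands alone on chromosome 16, gave 8.02, 11.9, 575 and 930.1 against 682, 25.8, 1962 and 111. Both followed the same order of arrays, with a narrower spread among the bright arrays for Crygs. Transcripts of the Cryga cluster are similar enough that the probe sets of this cluster may share signal, so its members are not independent measurements.

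Between TGFB and wildtype corneas no crystallin passed the test. With limma and Benjamini-Hochberg adjustment over 18193 genes, 0 of 10 members passed adjusted p under 0.05, as did 0.00% of all genes in either direction. At an unadjusted p under 0.05 the members numbered 0 as well, against 2.65% of all genes higher and 4.42% lower, and no probe set passed after adjustment when each was tested singly (0.00% in either direction). The groups overlapped for all 10 members, whereas 3.94% of all genes had groups that did not overlap. Over probe sets, of which 0 of 12 crystallin ones passed unadjusted, 2.70% were higher and 3.16% lower at an unadjusted p under 0.05, 3.28% had groups that did not overlap, and 48.4% had a lower mean in TGFB corneas. All 10 had a lower mean in TGFB corneas, as had 52.6% of all genes, with a median difference of -1.01 against -0.014 over all genes. The members vary together, so these 10 signs are not separate observations.

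Cryab had the narrowest error, with means of 11.45 ± 0.58 in TGFB and 12.07 ± 0.65 in wildtype corneas (SD, n = 4), a log2 difference of -0.62 (SE 0.37, 95% interval -1.46 to 0.22, limma adjusted p = 0.783). Its second probe set differed by -0.91 (SE 0.43, limma adjusted p = 0.853 over all probe sets). Cryaa differed by -1.13 (SE 1.84, 95% interval -5.30 to 3.04, limma adjusted p = 0.931), from means of 7.12 ± 3.31 and 8.25 ± 3.07. Cryga had the most negative estimate, -1.52 (SE 2.00, 95% interval -6.03 to 3.00, limma adjusted p = 0.906). Crybb2 differed by -0.66 (SE 1.08, 95% interval -3.10 to 1.78) and Crygs by -1.07 (SE 1.53). The other members lay between -1.46 for Crybb1 and -0.87 for Cryba2, with SEs of 1.28 to 1.96 and limma adjusted p of 0.909 to 0.946. The intervals of the 9 genes other than Cryab thus admit several-fold differences in either direction.

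**Figure D2:**
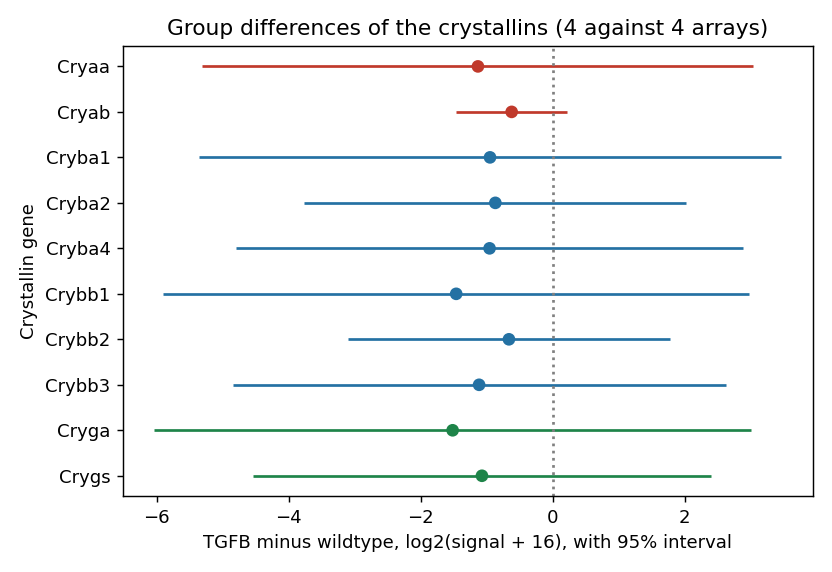
Difference between the TGFB and wildtype groups for each crystallin gene on the log2(signal + 16) scale, as points with 95% intervals from limma (4 against 4 arrays). All 10 points lie left of 0 and all 10 intervals cross it, the narrowest being that of Cryab (-1.46 to 0.22).

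For 4 of the 10 members the sign of the difference turned when a single array was left out. Without wildtype 3, the array with the most crystallin, Cryaa, Cryba1, Cryba2 and Cryba4 turned to 0.0040, 0.21, 0.21 and 0.24 and the other 6 stayed negative. Without TGFB 1, 1 of the 3 dimmest arrays, Cryba1 turned to 0.049. Without TGFB 1, TGFB 2 and wildtype 2, an alternative chosen with the values known, 8 of the 10 members had a higher mean in TGFB corneas. The limma adjusted p was then 0.953 to 0.989 over all 10 members. The arrays left out are the 3 dimmest for 9 of the 10 members, and more of them are TGFB than wildtype. Leaving them out raises the TGFB mean more, so this turn of sign is partly built into the choice. The median SD within a group was 0.27 over all genes, while 9 members had SDs between 1.79 and 3.80. The range of each member other than Cryab over the 8 arrays was at least 4.12 on the log2 scale, a range that 0.951% of all genes (173) reached. Cryab had a range of 2.22, reached by 5.33% of genes.

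As a share of the summed signal of an array, the 9 crystallins other than Cryab made up 0.00113%, 0.00126%, 0.0406% and 0.234% in TGFB 1 to 4 and 0.109%, 0.00251%, 0.333% and 0.00878% in wildtype 1 to 4. In bulk tissue, fewer lens cells and less crystallin RNA per cell cannot be told apart. With Cryab the share was 0.0173% to 0.271% in TGFB and 0.0328% to 0.409% in wildtype corneas.

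Set against the brightest array, the crystallins did not scale by 1 common factor. TGFB 4 held 91.4% of the Cryga signal of wildtype 3, 85.6% of Cryba1 and 82.7% of Cryaa, but 47.4% of Crygs, 43.3% of Crybb2 and 33.6% of Cryba2. TGFB 3 held 7.89% of the Cryaa signal, 8.52% of Crybb1, 12.2% of Cryba1 and 15.0% of Cryga, but 29.3% of Crygs and 75.0% of Crybb2. Wildtype 4 held between 1.52% and 5.65% of 8 members, and 18.2% of Crybb2 and 35.9% of Cryab. In TGFB 3, Crybb2 and Crygs thus kept more of their wildtype 3 signal than the other crystallins but Cryab did. Each of these percentages sets 1 array against another, with no replicate check. The highest signal of any probe set on an array was 10569 to 19854, above the brightest crystallin value of 7990.3.

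**Figure D3:**
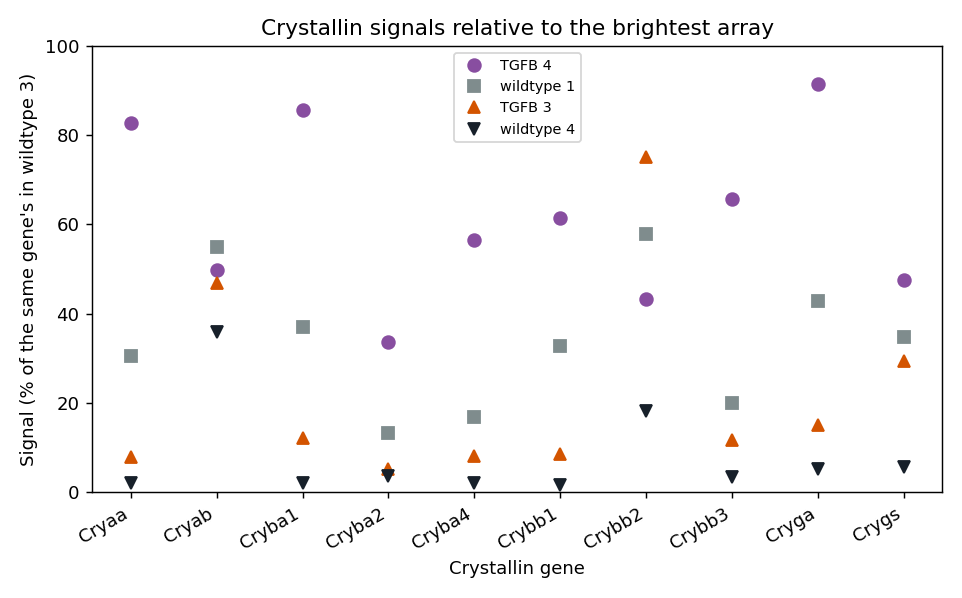
Signal of each crystallin gene in TGFB 4, wildtype 1, TGFB 3 and wildtype 4 as a percentage of the same gene's signal in wildtype 3; each point is 1 array. In TGFB 3, Crybb2 stands at 75.0% and Crygs at 29.3%, while Cryaa stands at 7.89% and Cryga at 15.0%.

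The step between TGFB 3 and TGFB 4, the TGFB arrays with the most crystallin signal, differed between members. From TGFB 3 to TGFB 4, Cryaa was 10.5-fold, Crybb1 7.22-fold, Cryba4 7.03-fold, Cryba1 7.02-fold, Cryba2 6.48-fold, Cryga 6.11-fold and Crybb3 5.60-fold higher. Over the same step Crygs was 1.62-fold and Cryab 1.06-fold higher, and Crybb2 had 0.577 of its signal. The ratio of Crybb2 to Crybb1 signals was 0.367 in TGFB 3 and 0.500 in wildtype 4, and 0.0293, 0.0739 and 0.0417 in TGFB 4, wildtype 1 and wildtype 3. The ratio of Crygs to Cryga ran from 0.161 in TGFB 4 to 0.608 in TGFB 3 over these 5 arrays. On TGFB 1, TGFB 2 and wildtype 2 these gene pairs lie near background and their ratios are not given.

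Chromosomal neighbours did not always share these steps. By the order of coding genes in RefSeq GRCm38.p6, Cryba4 and Crybb1 are next to each other on chromosome 5, and their steps from TGFB 3 to TGFB 4 were near equal (7.03-fold and 7.22-fold). Crybb2 and Crybb3, also next to each other on chromosome 5, differed, at 0.577 and 5.60. Cryab adjoins Hspb2, a small heat-shock protein gene expressed in muscle, on chromosome 9. Hspb2 gave 284, 127, 262 and 157 in TGFB and 177, 334, 257 and 195 in wildtype corneas, with its highest signal in wildtype 2 and not in wildtype 3.

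The ratios of the crystallin families were taken on each array from summed signals with 1 probe set per gene. With alpha as the divisor they were highest on the arrays with the most crystallin signal. On every array Cryab made up more of the alpha sum than Cryaa, and it ranged only 4.71-fold. A rise of these ratios where beta and gamma are bright is thus partly built into the measure. Beta over alpha was 0.0400, 0.0556, 0.634 and 2.38 in TGFB 1 to 4 and 1.26, 0.0525, 2.09 and 0.189 in wildtype 1 to 4. Gamma over alpha was 0.00798, 0.0164, 0.379 and 1.009 against 0.628, 0.0192, 0.738 and 0.148. Gamma over beta moved less, at 0.199, 0.295, 0.599 and 0.424 against 0.499, 0.366, 0.352 and 0.782, and was highest in wildtype 4 and TGFB 3. On TGFB 1, TGFB 2 and wildtype 2 the beta and gamma sums rest on signals near background (gamma sums of 18.9, 28.0 and 65.0), and the alpha sum is nearly all Cryab, so these 3 arrays carry little information on the ratios and still enter the group means. The ratio of Cryab to Cryaa signals was 1.49 in TGFB 4, 2.48 in wildtype 3, 4.45 in wildtype 1, 14.7 in TGFB 3 and 46.8 in wildtype 4. With Cryaa alone as the divisor, a choice made after the data were seen, the pattern over these arrays turned. Beta over Cryaa was 5.92 in TGFB 4, 6.86 in wildtype 1 and 7.28 in wildtype 3. It was 9.97 in TGFB 3 and 9.03 in wildtype 4. Gamma over Cryaa was 2.51, 3.42 and 2.56 against 5.97 and 7.06.

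On the log2 scale, beta over alpha averaged -2.05 ± 2.83 in TGFB and -1.31 ± 2.46 in wildtype corneas, gamma over alpha -3.57 ± 3.40 and -2.39 ± 2.44, and gamma over beta -1.52 ± 0.68 and -1.08 ± 0.53 (SD, n = 4). The group differences of -0.74, -1.18 and -0.44 were smaller than the spread between replicates in each case, and no p is given because the ratios are scores over chosen members. With Cryaa alone as the alpha family, chosen after the data were seen, the first pair of differences became 0.42 and -0.022. In TGFB 1 the Cryaa signal was only 3.84, and beta over Cryaa was 24.7, against at most 9.97 on any other array. The 0.42 thus rests partly on a divisor near background. Beta over alpha also turned positive without TGFB 1 (0.12) or without wildtype 3 (0.053). Without the 3 near-background arrays, likewise chosen with the values known, the differences were 0.63 for beta over alpha, 0.60 for gamma over alpha and -0.035 for gamma over beta. Those arrays had the lowest ratios over alpha, and more of them are TGFB than wildtype. The turn to positive values is thus partly built into the choice.

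**Figure D4:**
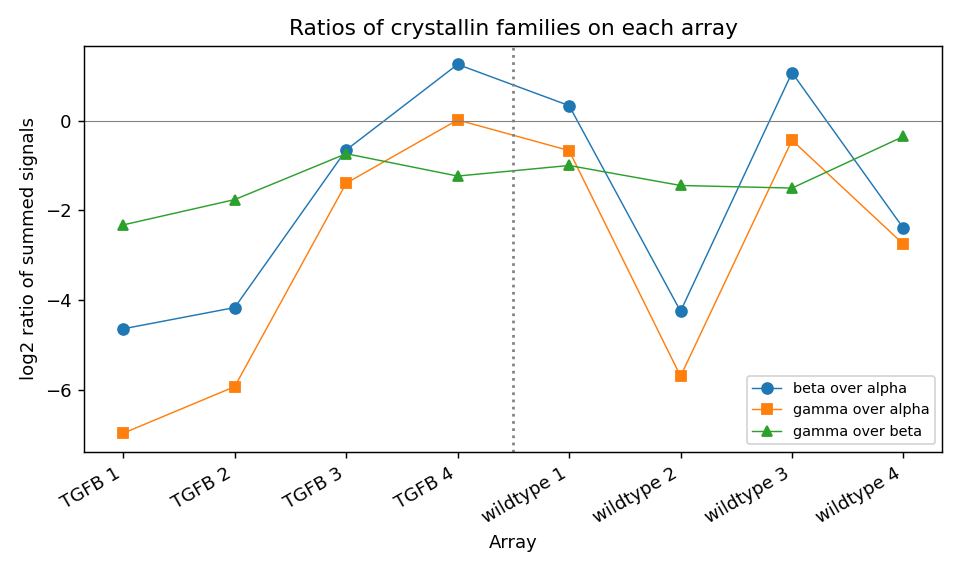
log2 ratio of the summed signals of beta over alpha, gamma over alpha and gamma over beta crystallins on each of the 8 arrays; lines only join the points of a ratio. Both ratios over alpha fall to between -6.97 and -4.17 on TGFB 1, TGFB 2 and wildtype 2, where beta and gamma signals are near background, while gamma over beta stays between -2.33 and -0.36.

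The promoters of the crystallins were examined for letters they share. RefSeq's promoter table (build GRCm38.p6) held 9 of the 10 genes, all but Cryab, and the windows run from 250 bases before to 50 after the start. TGCTGA, the half-site bound by Maf proteins, was found on either strand in 8 of the 9 windows, against 19.5% of 32851 windows of the same length. CTTTGT, a Sox-type sequence, was found in 4 of 9 (18.7% of all), TATAAA in 4 of 9 (13.6%) and GAANNTTC, the core of a heat shock element, in 0 of 9 (7.86%). The only window without TGCTGA was that of Crybb2. A match is a description of letters, and the absence of one says only that the letters are not in the window. Any part of these letters in the order of the arrays was not tested.

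The 220 bases just before the start are shown for 5 members, because they set 1 gene of each family with a wide range between arrays (Cryaa, Crybb1 and Cryga) beside Crybb2 and Crygs, which kept relatively high signals in TGFB 3. Each is read on the strand of the gene, and capitals mark the matches to the motifs on either strand, none of which overlap. They lie at chr17:31677711-31677930 (plus strand, Cryaa), chr5:112255600-112255819 (plus, Crybb1), chr1:65103364-65103583 (minus, Cryga), chr5:113070118-113070337 (minus, Crybb2) and chr16:22811411-22811630 (minus, Crygs).
Cryaa: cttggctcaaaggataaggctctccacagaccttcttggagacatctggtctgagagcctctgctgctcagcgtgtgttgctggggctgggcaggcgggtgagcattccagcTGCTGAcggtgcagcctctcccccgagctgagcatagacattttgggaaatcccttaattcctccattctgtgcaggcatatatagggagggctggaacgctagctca
Crybb1: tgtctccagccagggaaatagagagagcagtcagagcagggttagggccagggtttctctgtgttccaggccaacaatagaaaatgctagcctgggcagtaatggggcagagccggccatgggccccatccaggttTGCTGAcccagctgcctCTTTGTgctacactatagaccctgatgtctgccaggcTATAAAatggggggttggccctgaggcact
Cryga: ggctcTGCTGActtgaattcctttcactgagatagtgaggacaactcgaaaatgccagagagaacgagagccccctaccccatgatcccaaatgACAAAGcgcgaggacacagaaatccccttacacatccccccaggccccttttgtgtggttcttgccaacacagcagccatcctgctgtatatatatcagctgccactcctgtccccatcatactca
Crybb2: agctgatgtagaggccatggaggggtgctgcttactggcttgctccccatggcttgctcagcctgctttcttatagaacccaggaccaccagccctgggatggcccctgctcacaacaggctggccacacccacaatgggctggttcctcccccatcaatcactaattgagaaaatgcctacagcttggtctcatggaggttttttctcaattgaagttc
Crygs: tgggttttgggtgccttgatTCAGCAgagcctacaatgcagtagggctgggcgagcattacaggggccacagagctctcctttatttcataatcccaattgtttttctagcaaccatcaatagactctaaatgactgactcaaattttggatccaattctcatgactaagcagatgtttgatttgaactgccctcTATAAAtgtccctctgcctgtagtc
In these lines the Maf half-site begins 108 bases before the start in Cryaa, 84 in Crybb1, 215 in Cryga and 200 in Crygs, where it is read on the opposite strand. Crybb1 also holds the Sox-type sequence and TATAAA, 67 and 30 bases before its start. Cryga holds the Sox-type sequence on the opposite strand, beginning 126 bases before its start. Crygs holds TATAAA 25 bases before its start.

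Other crystallins of the lens followed the same arrays. Of 12 further genes with crystallin names, 10 were measured, 7 with a lower and 3 with a higher mean in TGFB corneas (median difference -0.78), and 0 passed. Crygf, a neighbour of Cryga in sequence, gave 3.07, 28.6, 1320.1 and 3804 in TGFB and 2381, 29.2, 6868 and 234 in wildtype corneas. Crygb gave 14.1, 13.7, 948 and 2248 against 1454, 17.4, 5044 and 141. Both repeat the order of Cryga over the 5 brighter arrays, with TGFB 3 closer to TGFB 4 (a step of 2.88-fold and 2.37-fold). Genes that carry a crystallin name for other reasons had other profiles. Cryz, a quinone reductase recruited as a lens crystallin in guinea pigs, gave 385, 344, 849.6 and 914 against 1247, 665, 1185 and 1698, highest in wildtype 4 (log2 difference -0.98, SE 0.39, limma adjusted p = 0.677). Crym, a thyroid hormone binding protein, was highest in wildtype 1, at 969.

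Lens fibre genes outside the crystallins had their highest sum in wildtype 3 and their second highest in TGFB 4. Of 12 listed, 9 were measured, 7 had a lower and 2 a higher mean in TGFB corneas (median difference -0.46), 0 passed, and 7 were highest in wildtype 3. Their summed signal ran from 207 to 889 in TGFB and from 229 to 1746 in wildtype corneas. Lim2, a membrane protein of fibre cells, gave 13.1, 17.8, 35.5 and 108 in TGFB and 112, 14.1, 296 and 18.7 in wildtype corneas. Grifin, a lens galectin-related protein, gave 8.03, 15.4, 39.3 and 118 against 24.6, 18.4, 290.3 and 34.8. Mip, the water channel of lens fibres, named after its values were seen, gave 0.41, 2.99, 5.13 and 208 against 64.1, 4.39, 269 and 6.38. Mip was thus highest in wildtype 3 and TGFB 4, as were 8 of the 10 crystallins. Bfsp2 and Birc7, likewise named after their values were seen, differed from this. Bfsp2 was higher in TGFB 3 (43.2) than in TGFB 4 (23.8). Birc7 was highest in TGFB 4 (38.7) and had a higher mean in TGFB corneas (log2 difference 0.34, SE 0.37). The sum of the list was also higher in TGFB 1 (306) than in wildtype 4 (229), unlike the sum of the crystallins. Tdrd7, an RNA granule protein needed in the lens but expressed elsewhere too, and the connexin Gja3 ran only from 100.2 to 293 and from 26.4 to 181.

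Transcription factors of the lens were examined as a fixed list. Of 13 listed, 12 were measured, 7 with a lower and 5 with a higher mean in TGFB corneas (median difference -0.065), and 0 passed. Of the 12, 6 were highest in wildtype 3. Pax6, which is also active in corneal epithelium, iris and retina, gave 127, 91.6, 590.4 and 746 in TGFB and 799, 663, 1068 and 206 in wildtype corneas. In wildtype 2, an array with little crystallin, Pax6 was thus close to its level in TGFB 4. Sox2 ran from 54.8 to 379, Maf from 253 to 493 and Meis1 from 107 to 517. Foxe3, a factor of the lens epithelium, named after its values were seen, lay below 16 on every array.

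Cryab was set beside the other small heat-shock proteins. Of 6, 5 had a lower and 1 a higher mean in TGFB corneas (median difference -0.16) and 0 passed. None was highest in wildtype 3. Hspb1 gave 3371, 4173, 3142 and 2972 in TGFB and 2417, 3526, 3441 and 1791 in wildtype corneas. Hspb8, a partner of the chaperone Bag3, ran from 614 to 1258, and Hspb6, a small heat-shock protein of muscle, from 211 to 845. Cryab was highest in wildtype 3 and lowest in TGFB 2.

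The genes most like the crystallins were sought by Pearson's r over the 8 arrays among 6902 genes with a log2 range of 1 or more, as a description without a test, since all points share the same arrays. The 10 members resembled the mean of the other 9 with r of 0.986 to 0.994 for 7 of them, and 0.944 for Cryba2, 0.925 for Crybb2 and 0.863 for Cryab. Outside the members the highest values were those of Crygd (0.996), Crygb (0.993) and Crygf (0.987). Next came Mtmr7 (0.974), Dnase2b (0.945), Trim9 (0.943), Lim2 (0.936), Speg (0.933), Tmem215 (0.931) and Prkcb (0.927). Dnase2b, the nuclease that clears the DNA of lens fibre nuclei, was very dim, with 0.49 to 25.9 over the 8 arrays. Mtmr7, a phosphoinositide phosphatase, gave 26.5, 32.1, 58.3 and 73.7 in TGFB and 71.9, 34.3, 93.4 and 32.6 in wildtype corneas, with wildtype 3, TGFB 4 and wildtype 1 highest.

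The nearest genes differed between the alpha crystallins. Cryaa was closest to Crygd (0.985), Crygb (0.977), Crygf (0.975), Mtmr7 (0.975) and Dnase2b (0.956). Cryab was closest to Six3 (0.978), Syt9 (0.972), Unc5c (0.967), Zfp536 (0.967) and Islr2 (0.953), none of them a crystallin. Without TGFB 2 and wildtype 3, where Cryab was most extreme, r fell to 0.848 for Unc5c and 0.707 for Islr2. It was then 0.920 for Six3, 0.942 for Syt9 and 0.927 for Zfp536. Six3, an eye field transcription factor, gave 49.6, 21.0, 114 and 128 in TGFB and 139.9, 124, 328 and 51.6 in wildtype corneas. Crygs was closest to Crygb (0.996), Crygd (0.996), Crygf (0.995), Mtmr7 (0.963) and Speg (0.954). Cryga was closest to Crygd (0.996), Crygf (0.992), Crygb (0.987), Tmem215 (0.956) and Prdm16 (0.952).

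Markers of other tissues also varied from array to array. The summed signal of 7 cornified epidermis genes was 38191, 45220 and 24637 on TGFB 1, TGFB 2 and wildtype 2, the 3 arrays with the least crystallin, and 712 to 1551 on the other 5. All 7 of those genes had a higher mean in TGFB corneas, and 0 passed. All 12 pigment cell genes had a lower mean in TGFB corneas, as had 52.6% of all genes. Of the 12, 7 were lower at an unadjusted p under 0.05 (4.42% of all genes) and 0 passed limma's adjustment. They summed to 3499 to 15523 in TGFB and 15108 to 35574 in wildtype corneas. Of 19 measured retina genes 16 had a lower mean, 4 were lower at an unadjusted p under 0.05 and 0 passed. The retina genes summed to 376 to 1202 in TGFB and 818 to 7664 in wildtype corneas. The highest pigment and retina sums were in wildtype 1, not in wildtype 3. Of the 19 retina genes, 3 (Pde6a, Prph2 and Opn1mw) lay below 16 on every array, while Rlbp1 reached 1918 and Sag 1892 in wildtype 1. These retina genes were named after their values were seen. The part of these tissues in the crystallin values was not tested.

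**Figure D5:**
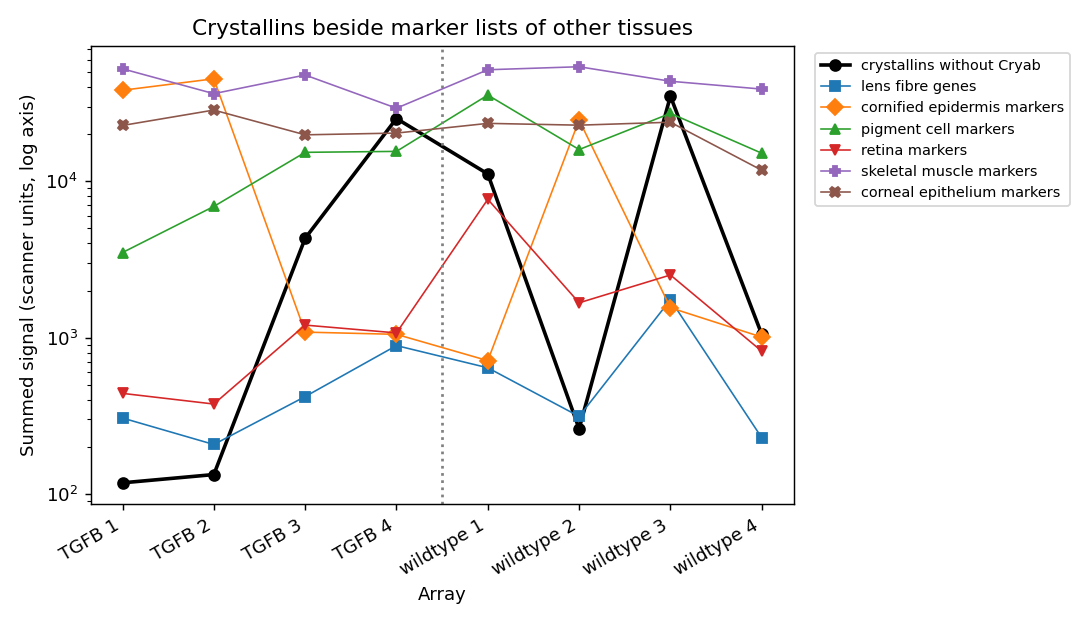
Summed signal (log axis) of the crystallins without Cryab and of 6 fixed marker lists on each array; lines only join the points of a list. Cornified epidermis genes are highest on TGFB 1, TGFB 2 and wildtype 2, where the crystallin sum is at 118, 133 and 261, while the muscle sum stays between 29319 and 54001.

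Skeletal muscle genes, relevant because muscle makes Cryab, summed to 29319 to 52389 in TGFB and 38853 to 54001 in wildtype corneas, and 1 of 20 was highest in wildtype 3. Of the 20, 17 had a lower and 3 a higher mean in TGFB corneas. Only 1 was lower at an unadjusted p under 0.05, and 0 passed limma's adjustment. The sum hides wider ranges of single genes. Mb ran from 70.8 to 2781 and Myh2 from 49.3 to 2980, both highest in wildtype 1 and named after their values were seen. Corneal epithelial genes summed to 19809 to 28530 and 11758 to 23851, and stromal genes to 23058 to 28788 and 27782 to 44269. At an unadjusted p under 0.05, 1 of 12 corneal epithelial genes was lower and 3 were higher in TGFB corneas. All 8 stromal genes had a lower mean, 2 of them at an unadjusted p under 0.05. Over all genes these shares were 4.42% lower and 2.65% higher, and 0 genes of either list passed limma's adjustment. The stromal proteoglycan genes Kera and Lum, named after their values were seen, were at 2073 or more and 3728 or more on every array. The corneal keratin gene Krt12, named likewise, was at 289 in TGFB 1 and 562 in wildtype 4. On the other 6 arrays it was at 3008 to 5766. Krt5 and Krt14, which epidermis also makes and which were named likewise, were at 2302 or more and 1274 or more throughout. The part of the Krt12 difference in the crystallin values was not tested. The ligand genes Tgfb1, Tgfb2 and Tgfb3 differed by 0.36 (SE 0.25), -0.10 (SE 0.28) and 0.099 (SE 0.31), with limma adjusted p of 0.817 to 0.969, which checks the group labels only in so far as the transgene matches these mouse probe sets.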

How the data were processed

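Total RNA of 8 mouse cornea samples (4 TGFB, 4 wildtype) was measured on one-colour arrays. The authors deposited 1 intensity per probe set and array, on a linear scale, and the software and scaling behind them are not given in the sources used. Each of the 8 arrays has a 2% trimmed mean of 150, so values were used without further scaling. Values were taken as log2(signal + 16). The platform annotation gave 1 symbol to 34945 probe sets, several to 932 and none to 9160, and 34741 matched a RefSeq gene by Entrez ID. The 64 control probe sets were left out. Each gene is represented by its probe set with the highest mean over all arrays. Replicate numbers follow the order of the records and pair no arrays. No pair of arrays held identical values, and the number of arrays limits the precision.

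The comparison of TGFB with wildtype used lmFit and eBayes of limma 3.58.1 (R 4.3.3; 9.03 total degrees of freedom), adjusted over 18193 genes at 0.05, and again over 45037 probe sets. On simulated data with 200 changed genes, this comparison recovered 47.5% of 2-fold, 87.3% of 4-fold and 95.3% of 8-fold changes. These rates are for genes of typical spread and need not hold for the crystallins.

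The members and lists were chosen with earlier results of these data known. The rule for named genes takes all members, up to 4 genes per list by mean level, and the genes of highest r (10 for the mean of the members, 5 each for Cryaa, Cryab, Cryga and Crygs). It also takes Tgfb1, Tgfb2 and Tgfb3. Genes outside it are marked as named after their values were seen. Other settings tried were array weights, robust eBayes, a variance trend, quantile normalization, centring on medians, leaving out genes under the 40th percentile of mean level, averaging a gene's probe sets, testing probe sets singly, offsets of 1 and 32, and omitting each array.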

Additional observations from a re-analysis of the deposited data

How the results depend on the processing

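No crystallin passed the threshold in any of 19 settings, where the smallest adjusted p of a member was 0.431, for Cryab without wildtype 4. The number of genes past the threshold over all genes was 0 in each setting except without wildtype 4, so that it ran from 0 to 2 with single arrays left out (limma; 1288 genes at an unadjusted p under 0.05 with all arrays). In the 10 other processing settings all 10 members kept a lower mean in TGFB corneas, in the 100 values computed. With single arrays left out, 75 of 80 values kept their sign. The ranges were -2.56 to 0.0040 for Cryaa, -2.35 to 0.21 for Cryba1, -1.73 to 0.21 for Cryba2 and -2.20 to 0.24 for Cryba4, with positive values without wildtype 3, and for Cryba1 also without TGFB 1 (0.049). A setting chosen after seeing the data left out TGFB 1, TGFB 2 and wildtype 2 together. The differences were then 0.43 for Cryaa, 0.69 for Cryba1, 0.45 for Cryba4 and 0.38 for Crybb1. They were 0.21 for Crybb2, 0.52 for Crybb3, 0.39 for Cryga and 0.42 for Crygs, while Cryab and Cryba2 stayed negative. The arrays left out are the 3 dimmest for 9 of the 10 members and are mostly TGFB, so the turn is partly built into the choice. Its cause was not tested. In every setting the family ratios moved by less than the spread between replicates over all 8 arrays. That SD was 2.65 for beta over alpha, 2.96 for gamma over alpha and 0.612 for gamma over beta. The near-background arrays widen it for the ratios over alpha, so this is a weak check, and some signs turned. Over single arrays left out, beta over alpha ran from -1.84 to 0.12, gamma over alpha from -2.37 to -0.047 and gamma over beta from -0.70 to -0.17. Without TGFB 1, TGFB 2 and wildtype 2 together they were 0.63, 0.60 and -0.035. For the ratios over alpha, lowest on those arrays, this turn is likewise partly built into the choice. No paired analysis was possible because the labels number the arrays 1 to 8 across both groups and share no number between them. Signals below 16, on TGFB 1, TGFB 2 and wildtype 2 above all, carry little information on order.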
